A study of Mus musculus with 8 samples.

Results

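The thrombospondins and tenascins of the newborn mouse aorta were taken as the genes Thbs1, Thbs2, Thbs3, Thbs4, Comp, Tnc, Tnxb and Tnn, chosen by their symbols in the array's platform annotation. These are 8 of the 22180 genes that had a probe set with exactly 1 gene symbol. Each was read by 1 probe set, none of them shared with another gene, and all 8 passed the filter on dim genes that left 16635 genes for testing. RNA was measured on Affymetrix arrays in ascending and descending aorta of p0 pups, wild type (WT) or knocked out for Lysyl oxidase (Lox KO, here KO), all on an albino C57BL/6J background. Lox encodes lysyl oxidase, by which elastin and collagen fibres are crosslinked. The ascending piece ran from the aortic valve to the ductus arteriosus and the descending piece from the vena cava to the diaphragm. Each of the 4 groups had 2 arrays, and each array held 1 pool of 8 pups of like genotype, so every group mean has n = 2 pools and p-values measure the spread between pools. In such bulk tissue, fewer cells of a type and less RNA per cell cannot be told apart.

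Thrombospondins and tenascins are large secreted proteins of the extracellular matrix that are called matricellular, because they tune how cells meet the matrix more than they bear load. Thbs1 and Thbs2 form trimers that bind CD47, CD36 and integrins, while Thbs3, Thbs4 and Comp form pentamers that bind collagens and are best known from tendon, cartilage and muscle. Tenascins act on adhesion and collagen organisation, and in arteries Tnc is known for appearing with injury and remodelling.

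All values are log2 signals made by the authors with RMA, so a difference of 1 is a doubling, and levels are compared between groups and not between genes. A gene was called, and is said to have risen, fallen or changed, at an adjusted p under 0.05 from limma with Benjamini-Hochberg adjustment over the 16635 genes. Array medians lay between 5.11 and 5.19. Arrays of a group correlated at 0.988 to 0.992 across genes, which are not independent replicates. Lox itself read 11.24 to 11.60 on the WT arrays and 8.51 to 8.87 on the KO arrays. It fell by 2.73 in ascending aorta (adjusted p = 5.35e-05) and fell by 2.80 in descending aorta (adjusted p = 4.43e-05). The sources used here do not say which exons its probes cover. The mean of 8 smooth muscle markers, which define the tissue, was 10.14 to 10.28 on every array, and limma called 0 of the 8 in KO against WT in either segment (1 in each at an unadjusted p under 0.05). Markers of neighbouring tissue were less even. Of 8 liver markers 7 were higher in KO descending pools, of 10 neutrophil markers 5 were higher in KO ascending pools, and of 8 adipocyte markers 4 were lower there. Lung markers set the WT descending pools apart: Sftpc, a surfactant gene, read 8.37 and 10.15 there and 4.50 to 5.07 on the other 6 arrays, and 2 of 6 lung markers were lower in KO descending pools. The mean of 6 thymus and lymphocyte markers was 6.28 on WT ascending replicate 1 and 4.87 to 5.49 on the other arrays. Averaged over segments, 4 of 8 endothelial markers were lower in KO pools, and the differences of all 8 were below 0 (median -0.33). Their part in the differences below was not tested unless a value is given.

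The region upstream of the start site was available for 6 of the 8 members, among them 4 that changed with genotype. RefSeq promoters (GRCm38.p6) of these 4 and of Tnc are printed as the 250 bases before the start, 5′ to 3′ on the gene's strand. Tnc was the only one of the 6 with an EGR match. No promoter was available for Thbs1 and Comp, so neither was searched for motifs. Capitals mark matches on either strand to EGR (GCGTGGGCG or GCGGGGGCG), AP-1 (TGACTCA, written here as its reverse complement where it lies on the other strand), the CArG box or the TATA box (with the letters TATAAA).
Thbs2, chr17:14694263-14694512, minus strand: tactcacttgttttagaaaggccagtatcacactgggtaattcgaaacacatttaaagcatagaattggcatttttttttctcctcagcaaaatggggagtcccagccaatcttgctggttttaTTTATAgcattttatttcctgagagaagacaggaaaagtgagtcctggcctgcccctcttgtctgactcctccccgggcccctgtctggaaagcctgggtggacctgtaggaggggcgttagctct
Thbs3, chr3:89214930-89215179, plus strand: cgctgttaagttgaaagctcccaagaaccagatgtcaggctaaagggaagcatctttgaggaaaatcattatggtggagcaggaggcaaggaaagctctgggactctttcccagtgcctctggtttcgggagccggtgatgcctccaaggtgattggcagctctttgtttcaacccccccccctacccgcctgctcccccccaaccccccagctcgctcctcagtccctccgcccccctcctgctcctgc
Thbs4, chr13:92794819-92795068, minus strand: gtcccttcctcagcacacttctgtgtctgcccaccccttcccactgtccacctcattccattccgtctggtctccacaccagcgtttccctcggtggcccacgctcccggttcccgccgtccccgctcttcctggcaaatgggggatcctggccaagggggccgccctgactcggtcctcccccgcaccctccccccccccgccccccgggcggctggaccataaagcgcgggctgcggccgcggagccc
Tnc, chr4:64047016-64047265, minus strand: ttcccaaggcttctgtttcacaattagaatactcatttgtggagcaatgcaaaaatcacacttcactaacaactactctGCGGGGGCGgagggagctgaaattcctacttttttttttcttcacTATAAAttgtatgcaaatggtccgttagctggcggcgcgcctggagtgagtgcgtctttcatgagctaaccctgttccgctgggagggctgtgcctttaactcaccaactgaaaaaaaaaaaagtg
Tnxb, chr17:34670285-34670534, plus strand: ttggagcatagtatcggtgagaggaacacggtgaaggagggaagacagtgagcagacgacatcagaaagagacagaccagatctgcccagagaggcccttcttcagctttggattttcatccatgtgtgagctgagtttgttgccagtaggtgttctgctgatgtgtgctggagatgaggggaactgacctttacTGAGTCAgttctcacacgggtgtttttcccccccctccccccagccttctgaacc
Tnc, which also has a second listed promoter that overlaps this one, held an EGR match at bases -171 to -163 and a TATA match at -126 to -121. Tnxb held an AP-1 match at -55 to -49. Thbs2 held a TATA match on the opposite strand at -126 to -121, and Thbs3 and Thbs4 held none of the motifs. Of 32851 promoters of this length, 3.06% held an EGR match, 4.46% AP-1, 1.47% a CArG box and 12.4% TATA. The Thbs4 window was 70.8% G or C, at percentile 92.2 of all promoters, and the Thbs2 window 46.8%, at percentile 31.1. A match is a run of letters and does not show that a factor binds there.

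**Figure D1:**
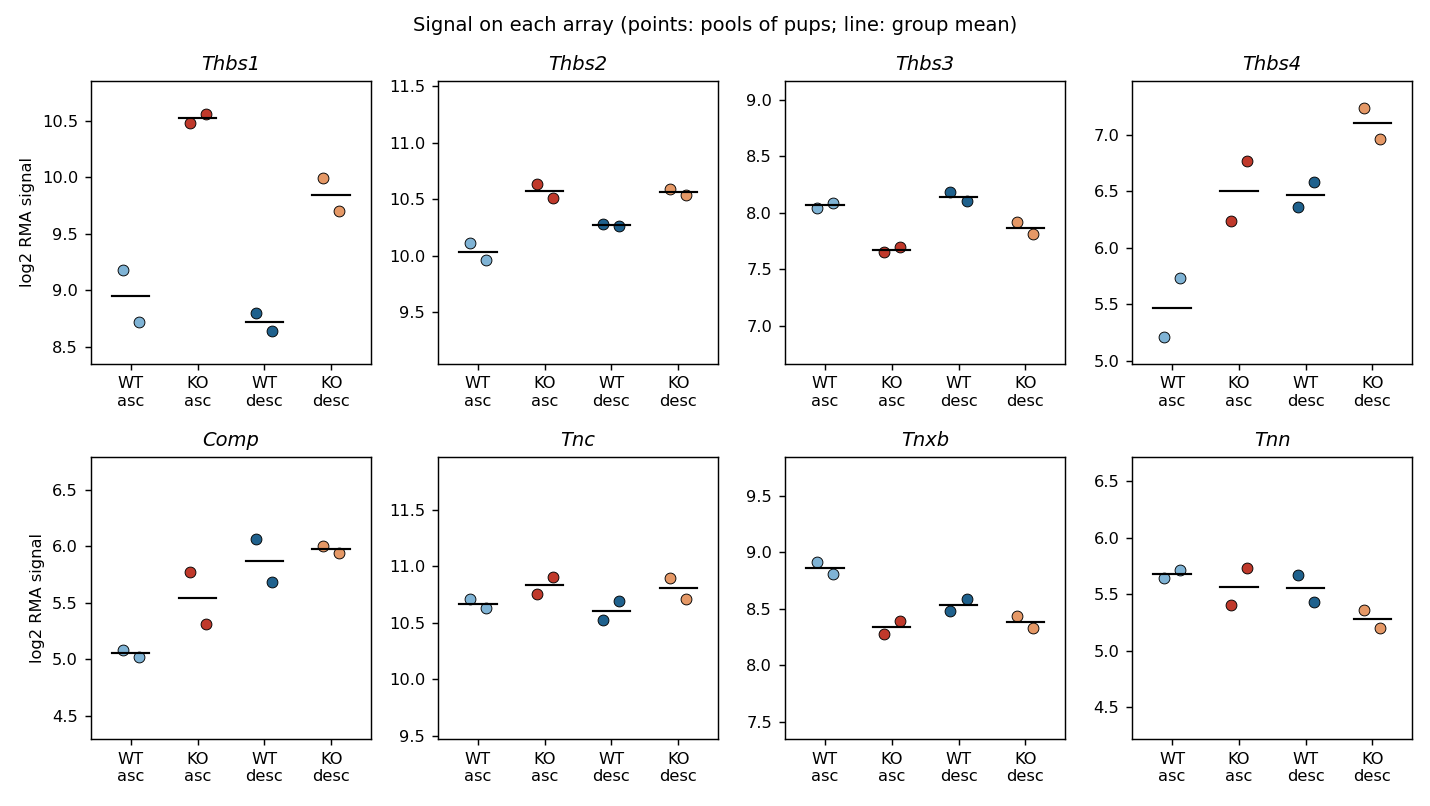
Log2 RMA signal of each gene (vertical axis, the same span in every panel) on the arrays of the 4 groups; points are pools and lines are group means. Thbs1 was at 10.48 or above on both KO ascending arrays and at 9.18 or below on all WT arrays, while Tnc stayed between 10.53 and 10.91 on all 8 arrays.

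The question the design puts first is how loss of Lox changes the aorta. In the ascending segment 3 of the 8 genes rose in KO pools (Thbs1, Thbs2 and Thbs4), 1 fell (Tnxb) and 4 did not pass the test. Over all genes tested, 2.74% were called there (1.54% higher and 1.19% lower). In the descending segment Thbs1 rose and the other 7 did not pass, against 2.28% of all genes (1.46% higher). The WT and KO arrays did not overlap for 7 of the 8 genes in the ascending segment, where 49.5% of all genes did not overlap, and for 7 of 8 in the descending segment, against 51.1%. With both segments averaged, 5 genes changed (3 higher and 2 lower), where 11.4% of all genes did (6.21% higher and 5.22% lower). All 4 KO arrays lay apart from all 4 WT arrays for 4 of the 8 genes (Thbs1, Thbs2, Thbs3 and Tnxb), against 17% of all genes. The median difference between KO and WT over the 8 genes was 0.33 in ascending and 0.15 in descending aorta, beside 0.011 and -0.0057 over all genes, and the median size of the difference was 0.51 and 0.27 beside 0.15 in each segment. Of the 4 ascending calls Thbs1 alone was kept without the filter on dim genes (adjusted p 0.0573 for Thbs2, 0.0695 for Thbs4 and 0.0672 for Tnxb) and in a fit on only the ascending arrays (0.11, 0.12 and 0.109).

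Thbs1, which can activate latent TGF-beta and is also a major protein of platelet granules, showed the largest difference between genotypes of the 8. In ascending aorta its signal was 9.18 and 8.72 on the WT arrays and 10.48 and 10.56 on the KO arrays. In descending aorta it was 8.80 and 8.64 in WT and 9.99 and 9.70 in KO. All 4 KO arrays were above all 4 WT arrays, and the KO ascending arrays were the highest. Thbs1 rose 2.97-fold in ascending aorta (1.57 log2, SE 0.17, adjusted p = 0.00579) and 2.18-fold in descending aorta (1.12 log2, SE 0.17, adjusted p = 0.0214). With both segments averaged the rise was 1.35 (SE 0.12, adjusted p = 0.00105). The ascending call was kept when any 1 of the 8 arrays was left out (highest adjusted p 0.0342). The descending call was lost without any 1 of the 4 descending arrays, with differences of 0.98 to 1.27 and adjusted p from 0.051 to 0.118.

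Platelet markers were read beside Thbs1. Of 10 markers written 7 were measured, and their mean was 6.73 and 6.75 on the WT ascending arrays and 7.76 and 7.41 on the KO ascending arrays. In descending aorta it was 6.81 and 6.87 in WT and 6.85 and 6.69 in KO. In the ascending segment 4 of the 7 rose (Ppbp by 1.65, Gp9 by 1.08, Gp5 by 0.88 and Treml1 by 0.62), while the platelet chemokine gene Pf4 differed by 0.15 (adjusted p = 0.546). In the descending segment, where Thbs1 was 2.18-fold higher, 0 of the 7 were called by limma (0 also at an unadjusted p under 0.05) and their differences lay between -0.17 and 0.06. In the interaction 0 of the 7 were called (5 at an unadjusted p under 0.05). The array with more platelet marker signal was the higher one for Thbs1 in 1 of 4 groups. The part of platelet RNA in the ascending rise of Thbs1 was not tested.

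Thbs2, which shapes collagen fibrils and shares its main receptors with Thbs1, read 10.11 and 9.96 on WT and 10.63 and 10.51 on KO ascending arrays. In descending aorta it read 10.28 and 10.26 in WT and 10.59 and 10.54 in KO. The KO arrays of both segments lay between 10.51 and 10.63, above every WT array. Thbs2 rose 1.46-fold in ascending aorta (0.54 log2, SE 0.10, adjusted p = 0.0374). In descending aorta the difference was 0.29, with a 95% interval of 0.06 to 0.53 (adjusted p = 0.182). Averaged over segments it rose by 0.42 (SE 0.07, adjusted p = 0.0116), a call kept without any 1 array (highest adjusted p 0.043). The ascending call was lost without any 1 of the 8 arrays (difference 0.47 to 0.62, adjusted p 0.0576 to 0.17).

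Thbs3, a pentamer known mainly from growing skeleton, went the other way. It read 8.04 and 8.09 on WT and 7.65 and 7.70 on KO ascending arrays, and 8.18 and 8.10 in WT and 7.92 and 7.81 in KO descending aorta. All 4 KO arrays were below all 4 WT arrays. The difference was -0.39 in ascending (95% interval -0.62 to -0.17, adjusted p = 0.0761) and -0.27 in descending aorta (-0.50 to -0.05, adjusted p = 0.186), neither past the test. Averaged over both segments, Thbs3 fell by 0.33 (SE 0.07, adjusted p = 0.0205). That call was lost without any 1 of 4 arrays (difference -0.32 to -0.31, adjusted p 0.0622 to 0.0775) and with the arrays shifted to one median (adjusted p = 0.0511).

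Thbs4, a pentamer of tendon and striated muscle that in heart also acts inside the cell in the endoplasmic reticulum stress response, had the widest range of the 8 genes, 5.21 to 7.24. In ascending aorta its signal was 5.21 and 5.73 in WT and 6.24 and 6.77 in KO. In descending aorta it was 6.36 and 6.58 in WT and 7.24 and 6.96 in KO. Within each segment the KO arrays were higher, and the KO ascending arrays overlapped the WT descending ones. Thbs4 rose 2.05-fold in ascending aorta (1.04 log2, SE 0.22, adjusted p = 0.0495), a call lost without any 1 of the 8 arrays (difference 0.77 to 1.30, adjusted p 0.0648 to 0.172). In descending aorta the difference was 0.63 (95% interval 0.13 to 1.14, adjusted p = 0.177). Averaged over segments it rose by 0.83 (SE 0.16, adjusted p = 0.0141). Without WT descending replicate 1 the averaged rise was 0.78 and no longer called (adjusted p = 0.0572).

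Comp, the cartilage oligomeric matrix protein of cartilage and tendon, did not pass the test between genotypes. It read 5.08 and 5.02 on WT and 5.77 and 5.31 on KO ascending arrays, and 6.06 and 5.68 in WT and 6.00 and 5.94 in KO descending aorta. The ascending arrays did not overlap, while in descending aorta the KO arrays lay within the WT range. The difference was 0.49 in ascending (95% interval 0.09 to 0.89, adjusted p = 0.172) and 0.10 in descending aorta (-0.30 to 0.50, adjusted p = 0.808).

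Among the tenascins, only Tnxb passed the test between genotypes. Tnxb, whose protein organises collagen in loose connective tissue, read 8.91 and 8.81 on WT and 8.28 and 8.39 on KO ascending arrays. In descending aorta it read 8.48 and 8.59 in WT and 8.44 and 8.33 in KO. WT ascending aorta stood above the other 3 groups. Tnxb fell by 0.52 in ascending aorta (SE 0.11, adjusted p = 0.045), and in descending aorta the difference was -0.15 (95% interval -0.39 to 0.10, adjusted p = 0.508). Averaged over segments it fell by 0.33 (SE 0.08, adjusted p = 0.0265), which was lost with the arrays shifted to one median (adjusted p = 0.0512). The ascending call was lost without any 1 of the 8 arrays (difference -0.58 to -0.47, adjusted p 0.0627 to 0.188) and the averaged call without any 1 of 7 (difference -0.36 to -0.31, adjusted p 0.0551 to 0.0813). Of 8 markers of fibroblasts and adventitia, 2 were lower in KO ascending pools, and their mean was 9.70 and 9.73 on the WT and 9.44 and 9.47 on the KO ascending arrays. In descending aorta, where Tnxb differed by -0.15, it was 9.68 and 9.63 in WT and 9.52 and 9.47 in KO, with 1 of the 8 lower and 1 (Pi16) higher. The array with more fibroblast marker signal was the higher one for Tnxb in 2 of 4 groups. The part of these marker differences in Tnxb was not tested.

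Tnc, the tenascin of remodelling tissue, did not pass the test. It read 10.71 and 10.63 on WT and 10.76 and 10.91 on KO ascending arrays, and 10.53 and 10.69 in WT and 10.90 and 10.71 in KO descending aorta. The difference was 0.16 in ascending (95% interval -0.11 to 0.43, adjusted p = 0.508) and 0.20 in descending aorta (-0.07 to 0.47, adjusted p = 0.418). Tnn, known from developing bone, read 5.2 to 5.73 on all arrays, with differences of -0.11 (-0.43 to 0.22) and -0.27 (-0.60 to 0.05). The intervals of both genes include 0 in both segments.

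**Figure D2:**
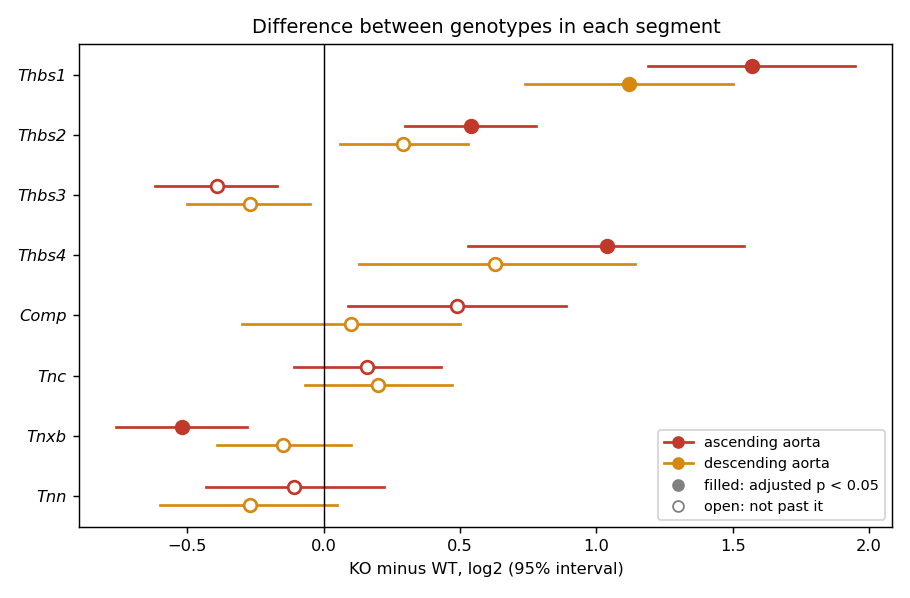
Difference between KO and WT (horizontal axis, log2) for each gene in ascending and descending aorta, with 95% intervals from the fit; filled points passed an adjusted p of 0.05. Thbs1 is filled in both segments, at 1.57 and 1.12, and Thbs2, Thbs4 and Tnxb in the ascending segment.

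Whether the genotype difference itself depended on the segment was tested by the interaction. None of the 8 genes was called, nor was any other gene (0 of 16635 with limma), and at an unadjusted p under 0.05 there were 1 of the 8 and 932 of all genes. The 1 gene was Tnxb, with an interaction of -0.37 (95% interval -0.72 to -0.03, adjusted p = 0.869). For Thbs1 the ascending difference was larger by 0.45 (95% interval -0.09 to 0.99, adjusted p = 0.908). The calls made in ascending and not in descending aorta are therefore not shown to be specific to the ascending segment.

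Between the segments, 2 of the 8 genes differed once genotypes were averaged, Thbs4 and Comp, both lower in ascending aorta. Over all genes, 4.07% were called in that comparison and 2.57% were lower in ascending aorta. Thbs4 was lower by 0.79 (difference -0.79, SE 0.16, adjusted p = 0.0275) and Comp by 0.62 (-0.62, SE 0.12, adjusted p = 0.0276). Each call was lost without any 1 of 6 arrays (Thbs4 -0.87 to -0.66, adjusted p 0.0528 to 0.102, and Comp -0.64 to -0.51, adjusted p 0.0623 to 0.0936). Within WT alone the differences were -1.0 for Thbs4 (95% interval -1.50 to -0.49, adjusted p = 0.0785) and -0.82 for Comp (-1.21 to -0.42, adjusted p = 0.0676). Within KO they were -0.59 (-1.10 to -0.09, adjusted p = 0.324) and -0.43 (-0.82 to -0.03, adjusted p = 0.373). With limma, 0 of the 8 genes were called in either genotype alone, where 1.48% of all genes were called in each, and 4 of the 8 in WT and 3 in KO had an unadjusted p under 0.05, as did 2044 and 2011 of all genes. Thbs1 was higher in ascending aorta by 0.68 in KO (95% interval 0.30 to 1.06, adjusted p = 0.111) and by 0.23 in WT (-0.15 to 0.61, adjusted p = 0.666). Markers of other tissue moved in the same averaged comparison: 7 of 8 adipocyte markers (median -1.11) and 4 of 6 sympathetic neuron markers (median -1.19) were lower in ascending aorta, and 1 of the latter was higher. Lower there too were 3 of 8 endothelial markers (median -0.19) and 2 of 5 tendon markers (median -0.08). The same held for 1 of 6 lung (median -0.51), 1 of 6 Schwann cell (median -0.08) and 1 of 8 heart muscle markers (median -0.75). In the other direction, 2 of 8 smooth muscle, 2 of 7 platelet and 1 of 7 cartilage markers were higher. Their part in the differences of Thbs4 and Comp was not tested. These comparisons share their arrays with those between genotypes.

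**Figure D3:**
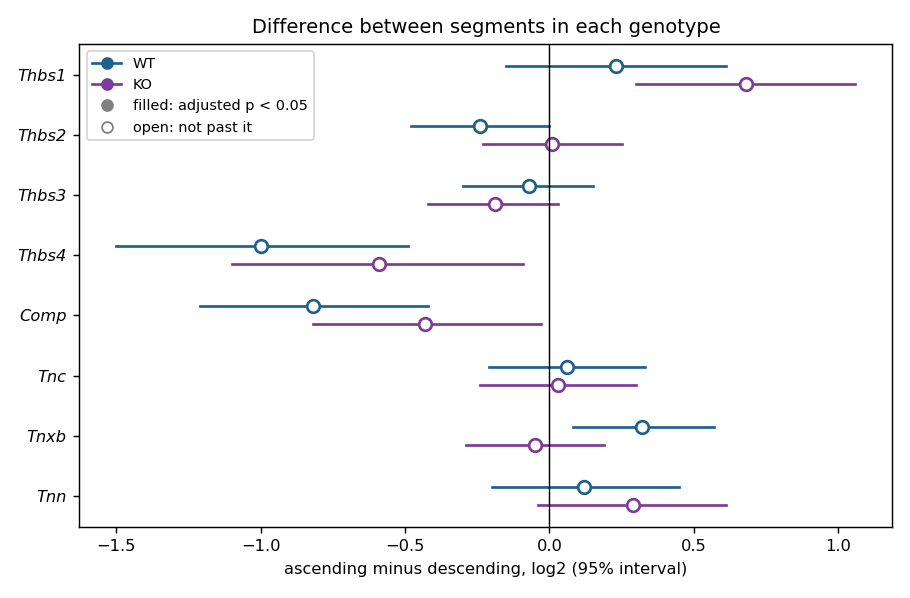
Difference between ascending and descending aorta (horizontal axis, log2) for each gene in WT and KO, with 95% intervals from the fit; no point passed an adjusted p of 0.05 within one genotype. Thbs4 and Comp lie left of 0 in both genotypes, at -1.0 and -0.82 in WT.

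Markers of skeletal muscle, heart muscle and tendon were examined beside Thbs4 and Comp, since both genes are expressed there. Cartilage markers were read as well, for Comp. The mean of 8 skeletal muscle markers was 5.67 and 7.19 on the WT and 5.76 and 6.89 on the KO ascending arrays, and 6.55 and 6.69 in WT and 8.07 and 6.86 in KO descending aorta. The array with more skeletal muscle marker signal was also the higher one for Thbs4 in 4 of 4 groups, and for Comp in 1 of 4. Over all 144 pairs of one of the 8 genes and one of 18 marker lists, 10 matched in this way in 4 of 4 groups and 7 in 0 of 4. With limma 0 of the 8 markers were called in any comparison (at an unadjusted p under 0.05, 1 in KO against WT in each segment, and 1 in WT and 3 in KO between segments), and the spread within the ascending groups was wider than the difference between their means. In a fit chosen after the values were seen, with this mean as a covariate, Thbs4 rose by 1.07 in KO ascending aorta (adjusted p = 0.0125), and the descending difference was 0.33 (adjusted p = 0.255). The covariate matched Thbs4 within every group, so a smaller spread of Thbs4 was built into this fit (SE 0.12, beside 0.22 without it). The adjusted p-values of Thbs4 in this fit are therefore optimistic and only descriptive. No fit with heart muscle markers was run. In the same fit Thbs4 was lower in WT ascending than WT descending aorta, with a difference of -0.93 (adjusted p = 0.0151), while within KO the difference of Thbs4 was -0.19 (adjusted p = 0.758), beside -0.59 without the covariate. With genotypes averaged, Thbs4 was lower by 0.56 (difference -0.56, adjusted p = 0.0319), and the Comp difference was -0.70 (adjusted p = 0.0553). The descending rise of Thbs1 was 1.17 and no longer called (adjusted p = 0.0565), and the ascending difference of Tnxb was -0.52 (adjusted p = 0.0626). For heart muscle the mean of 8 markers was 7.81 and 7.92 on the WT and 7.29 and 8.15 on the KO ascending arrays, and 8.16 and 8.5 in WT and 8.15 and 7.72 in KO descending aorta. It too was higher on the array with more Thbs4 in 4 of 4 groups, and on the array with more Comp in 1 of 4. With genotypes averaged, 1 of the 8 was called lower in ascending aorta. Of 6 tendon markers 5 passed the filter. The mean of all 6 was 6.00 and 5.85 on the WT and 6.44 and 6.58 on the KO ascending arrays, and 6.17 and 6.2 in WT and 6.75 and 6.66 in KO descending aorta, so KO arrays were higher in both segments. Of the 5 tested, 2 rose in each segment (Egr1 and Fmod) and 0 fell. The mean of the other 4 was 5.30 and 5.27 in WT and 5.40 and 5.53 in KO ascending aorta, and 5.53 and 5.47 in WT and 5.87 and 5.52 in KO descending aorta, where the arrays overlapped. Tnmd, a defining tendon gene, was lower in WT ascending aorta by 1.01 (difference -1.01, adjusted p = 0.0424), and within KO its difference was -0.86 (adjusted p = 0.0805). Fmod, the gene of a collagen-binding proteoglycan, rose by 0.96 and 1.01 in KO ascending and descending aorta. Fmod was also lower in ascending than descending aorta, with differences of -0.83 in WT (adjusted p = 0.0291) and -0.89 in KO (adjusted p = 0.0224). Scx, the tendon transcription factor, read 5.78 to 6.85 with no call, and Mkx and Kera, at 4.04 to 4.48 and 3.83 to 4.24, lay near or under the filter. The array with the higher mean of all 6 tendon markers was the higher one for Thbs4 in 3 of 4 groups and for Comp in 2 of 4. The part of tendon cells in the levels of Thbs4 and Comp was not tested. The mean of 8 cartilage markers was 5.76 and 5.97 in WT and 5.92 and 5.86 in KO ascending aorta. In descending aorta it was 6.12 and 5.86 in WT and 5.81 and 5.78 in KO. Hapln1 was lower in KO descending aorta (difference -1.17, adjusted p = 0.0388). Acan was higher in ascending aorta by 0.79 in WT and 0.64 in KO. The higher array for this mean was also higher for Comp in 3 of 4 groups. The part of cartilage was not tested.

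**Figure D4:**
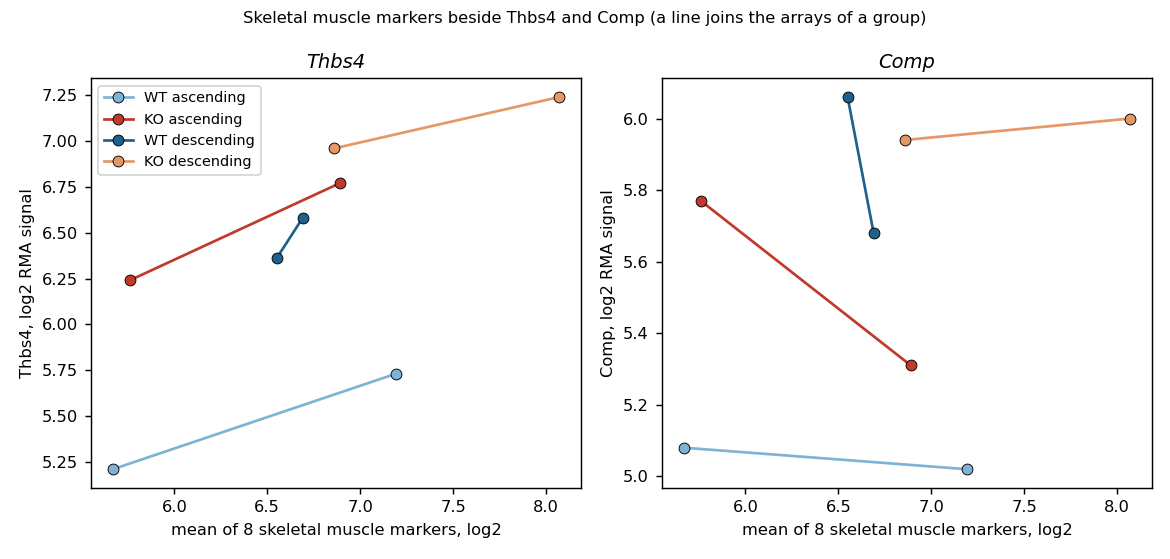
Signal of Thbs4 and of Comp (vertical axes, log2) against the mean of 8 skeletal muscle markers on the same array (horizontal axis, log2); a line joins the arrays of one group. The line of each group rises for Thbs4, in 4 of 4 groups, and for Comp in 1 of 4, and in each segment both KO arrays lie above both WT arrays for Thbs4.

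The genes most like each changed member over the 8 arrays were listed by Pearson correlation among 1125 or 1126 genes spanning at least 1 log2. The arrays share the 4 groups, so the coefficients are descriptive. For Thbs1 they were Tmem108 (0.983), Fstl3 (0.974), Grhl3 (0.972), Spon2 (0.97) and Cd14 (0.97), and Tmem108 differed between genotypes by 1.48 in ascending and 1.39 in descending aorta. For Thbs2 they were Lcp1 (0.965), Ccl8 (0.957), Isg15 (0.955), Cd300c2 (0.953) and Fcgr4 (0.953). Of these, Lcp1, Cd300c2 and Fcgr4 are leukocyte genes, and Ccl8 encodes a chemokine. Of 8 macrophage markers, 1 rose in KO ascending and 3 in KO descending aorta, beside the Thbs2 differences of 0.54 and 0.29. The mean of the 8 was 8.17 and 8.15 on the WT and 8.57 and 8.44 on the KO ascending arrays, and 8.40 and 8.29 in WT and 8.76 and 8.73 in KO descending aorta. The array with more macrophage marker signal was the higher one for Thbs2 in 4 of 4 groups, as it was for Comp. The part of macrophages in the rise of Thbs2 was not tested. For Thbs3 the nearest were Cbr4 (0.977) and Dock11 (0.972), followed by Zfp521, Enpp4 and Kcnma1. For Thbs4 the nearest was Col11a1 (0.957), a fibrillar collagen of cartilage, with differences of 1.80 and 1.22 between genotypes, followed by Cfb, Itgbl1, Flt1 and Nkain1. Comp went most closely with Pdia5 (0.923) and Crmp1 (0.921) and with Hoxc8 (0.908), a gene of posterior identity whose ascending minus descending difference was -1.70 in WT. Tnxb went with Enpp3 (0.959) and Tecrl (0.957), then Trpm3, Angpt1 and Fbxl22.

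The partners of these proteins were followed through lists of related genes, averaged over both segments, where 6.21% of all genes rose and 5.22% fell and the median of all genes was 0.0036. Of 29 genes listed as cell surface receptors 6 rose and 6 fell (median 0.04). Those that rose include Calr, a chaperone that is counted again among the endoplasmic reticulum stress genes below. The collagen receptor subunit Itga11 rose by 1.45, Itga4 by 1.13 and the tenascin-binding phosphatase Ptprz1 by 0.89, while the lipoprotein receptor Vldlr, which binds Thbs1, fell by 0.86. Of the receptors named above for Thbs1 and Thbs2, Cd36 fell by 1.15 (adjusted p = 0.00559) and Cd47 differed by -0.16 (adjusted p = 0.177). In the same comparison 6 of 8 adipocyte markers (median -0.91) and 4 of 8 endothelial markers (median -0.33) were lower. Their part in the fall of Cd36 was not tested. Itga8 and Itgb1 differed by -0.14 and -0.03 and did not pass. With any 1 array left out, 5 or 6 receptors rose and 3 or 4 fell.

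Other matricellular proteins numbered 21, of which 7 rose and 2 fell (median 0.03). The connective tissue growth factor relatives Ccn5, Ccn1 and Ccn2 rose by 1.98, 1.11 and 0.61, and Spon2, a spondin with a thrombospondin repeat, by 0.90. Mgp and Fbln5 differed by 0.03 and 0.12 and did not pass. Of 19 matrix proteins that bind thrombospondins or tenascins, Lox included, 1 rose (Col12a1, by 0.52) and 2 fell (Lox and Vcan, the latter by 0.53), with a median of 0.02. Col1a2 and Fn1 differed by 0.02 and 0.11 and did not pass. With any 1 array left out, 6 or 7 matricellular genes rose and 0 to 3 fell, and the matrix counts were 1 and 2 as before.

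Of 18 proteases that act on these proteins or stand with them in the list, 6 rose and 0 fell by limma (median 0.12, with 0 lower at an unadjusted p under 0.05), and without any 1 array 2 to 4 rose. Adamts12 rose by 0.54, Plau by 0.70, the neutrophil elastase gene Elane by 0.73 and Thbd by 0.34, the last encoding thrombomodulin, a cofactor of thrombin and no protease. Mmp2 and Mmp14 differed by -0.02 and -0.04 and did not pass. The 6 also hold F2, the prothrombin gene, which is mainly made in liver and rose by 0.75 (adjusted p = 0.0429). Beside these counts 7 of 10 neutrophil markers and 8 of 8 liver markers (median 1.52) rose in the same comparison, and their part in Elane and F2 was not tested. Of 22 genes of TGF-beta ligands and readouts, 8 rose and 2 fell (median 0.14), and without any 1 array 6 or 7 rose and 1 fell. Ltbp2 rose by 0.57, Ccn2 by 0.61 and the feedback gene Pmepa1 by 0.55. The coreceptor Tgfbr3 fell by 0.55, and Ltbp1 and Ltbp4 differed by 0.18 and -0.06 and did not pass. Ccn2 and the uncalled Tgfbi are also counted among the matricellular genes. The uncalled Bmp1 is counted among both the matrix genes and the proteases. The 22 include Ltbr, the lymphotoxin beta receptor, which is no TGF-beta gene and differed by -0.01 (adjusted p = 0.945).

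Of 33 transcriptional regulators known to act on members of the family or on the smooth muscle state, 9 rose and 2 fell (median 0.16), and 5 to 8 rose and 0 or 1 fell without any 1 array. Egr1 rose by 1.6, Fosb by 0.98, Egr2 by 0.78, Atf3 by 0.72 and Junb by 0.71. Of their relatives in the list, Fos differed by 1.05 (adjusted p = 0.0538), Jun by 0.27, Egr3 by 0.2 and Jund by 0.18, none past the test. Egr1 read 7.33 and 7.03 in WT and 8.96 and 9.12 in KO ascending aorta, and 6.85 and 7.21 in WT and 7.96 and 8.79 in KO descending aorta, so the KO arrays were higher in both segments. Tnc, whose printed promoter holds the EGR match, differed by 0.18 in the same comparison (adjusted p = 0.209). The promoter of Thbs1 was not available to be searched for this motif. Gata6 and Myocd differed by 0.16 and -0.26 and did not pass. Of 25 endoplasmic reticulum stress genes, a group in which Thbs4 is known to act in heart, 9 rose and 0 fell by limma (median 0.21, with 1 lower at an unadjusted p under 0.05), and 4 to 6 rose without any 1 array. The chaperones Hyou1, Sdf2l1 and Calr rose by 0.77, 0.73 and 0.58 and Creld2 by 0.46, while Hsp90b1 and Pdia3 differed by 0.19 and 0.20 and did not pass.

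The counts within 1 segment, each followed by its range with any 1 array left out, were as follows. They were taken from 29 receptors, 21 matricellular genes, 19 matrix genes, 18 proteases, 22 TGF-beta genes, 33 regulators and 25 stress genes. Over all genes tested, 1.54% rose and 1.19% fell in ascending aorta. In descending aorta 1.46% rose, and 2.28% were called in either direction. In ascending aorta 5 receptors rose and 2 fell (1 to 4 and 0 to 1 without any 1 array), 3 matricellular genes rose and 2 fell (1 to 3 and 0 to 1), and 6 regulators rose (0 to 6). In the same segment 2 stress genes rose (0 to 1), 1 protease rose (0 to 1), 1 TGF-beta gene rose and 1 fell (0 and 0 to 1), and 2 matrix genes fell (1). In descending aorta 4 receptors rose and 2 fell (2 to 3 and 0 to 2), 3 matricellular genes rose (1 to 2), 5 TGF-beta genes rose (0 to 3) and 1 matrix gene rose and 2 fell (0 and 1). There 2 stress genes (0 to 2), 1 protease (0 to 2) and 1 regulator (0 to 1) also rose.

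**Figure D5:**
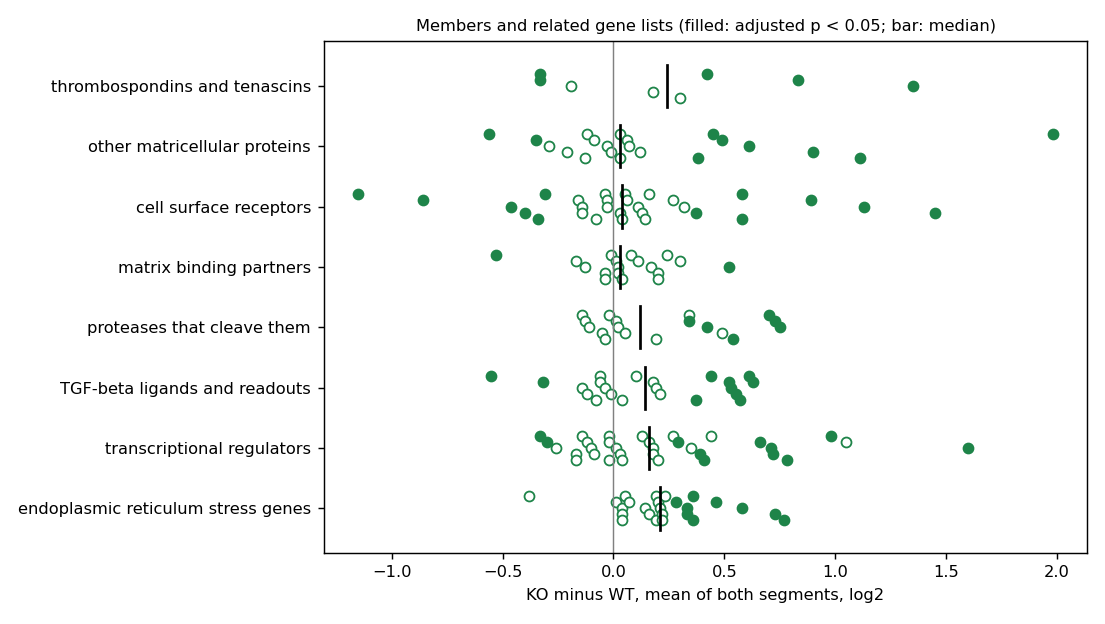
Difference between KO and WT averaged over both segments (horizontal axis, log2) for the 8 thrombospondins and tenascins and for 7 lists of related genes, each point a gene and each bar a median; filled points passed an adjusted p of 0.05, and Lox is left off. The top group has 5 filled points, from -0.33 to 1.35, and the endoplasmic reticulum stress genes have 9, all right of 0.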

How the data were processed

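Amplified, biotin-labelled RNA of 8 pools (NuGEN kits, per the labels) was hybridized. The deposited log2 signals come from RMA as run by the authors in Expression Console of Affymetrix, per the submitters' processing notes. Its version and settings were not given there. All 8 columns of values were used. Of 41345 probe sets, 23521 had 1 gene symbol in the platform table, 1814 several and 16010 none. The probe set with the highest mean stood for each of 1082 genes with more than 1. Genes under the 25th percentile of mean signal (4.11 log2) were left out.

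Groups came from the sample labels. A model with 1 coefficient per group was fitted over all 8 arrays in limma 3.58.1 (R 4.3.3) with eBayes (4 residual and 4.51 prior degrees of freedom). Adjustment of p-values was by Benjamini-Hochberg over the 16635 genes. The number of arrays limits the precision. Replicate numbers were not taken as pairs. The members, the 7 related lists (173 of 181 genes matched), the 18 marker lists and the tests were chosen with earlier results of these data known. Named in each related list were up to 4 called genes with the smallest p and up to 2 uncalled genes with the highest mean, and for each called member its 5 most correlated genes, without predicted genes, clone names, small RNAs and olfactory receptors. Sftpc, Scgb1a1, Cd36, Cd47, F2, Atf3, Fos, Jun, Egr3, Jund, Ltbr, Tgfbi, Bmp1, Hapln1 and Acan were named after their values were seen. Alternatives were other filters, priors, scalings, probe set rules, array weights, a replicate block, only the arrays compared, each array left out in turn and, chosen after seeing the data, the skeletal muscle marker mean as a covariate. The script was tested on simulated data. Promoters and motifs were read with python 3.11.15 and figures drawn with matplotlib 3.10.9.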

Additional observations from a re-analysis of the deposited data

How the results depend on the processing

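Among 1033 recomputed differences of the 8 genes, 931 kept their direction and side of the threshold, 68 lost the call, 15 gained one, 19 uncalled ones changed sign and 0 called ones reversed. Thbs1 in ascending aorta, and Thbs1 and Thbs2 averaged over segments, were called under every alternative run. The number of the 8 genes called between genotypes in ascending aorta, 4, was 1 without a filter on dim genes, 2 with array weights, 1 from only the arrays compared, 1 to 1 with any 1 array left out, and 5 (with Thbs3) when genes under the 50th percentile were dropped or with a trended robust prior. In descending aorta, 1 became 2 with a trended robust prior, 0 with the skeletal muscle covariate and 0 to 1 with an array left out. Averaged over segments, 5 became 3 with arrays shifted to one median and 2 to 5 with an array left out. Between segments in WT, 0 became 2 when genes under the 50th percentile were dropped, 2 with the trended robust prior, 1 with one median, 1 with the covariate and 0 to 1 with an array left out. In KO, 0 became 1 with the trended robust prior. Averaged over genotypes, 2 became 1 with the covariate, 3 (with Thbs1) with the trended robust prior and 0 to 2 with an array left out. The interaction gave 0 throughout. The cause of these changes was not tested. Where 1 array of a group remained, its spread was taken from the other groups.

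In ascending aorta 3 genes were called with arrays shifted to one median and with the skeletal muscle covariate (Tnxb was lost, adjusted p = 0.0698 and 0.0626). Testing every probe set gave 3 there as well (Thbs4 was lost, adjusted p = 0.0565). With the replicate number as a block, 3 genes were called in ascending aorta (Tnxb was lost, adjusted p = 0.0637) and 1 between segments in WT (Comp), with no other change of count. The numbers were not taken as pairs: deviations of same-numbered arrays correlated between -0.1 and 0.13, above 0.1 in 2 of 6 pairs. Genes called over all 16635 ranged from 64 to 1014 in ascending aorta (455 in the fit reported) and from 20 to 922 in descending aorta (380), with the fewest without WT ascending replicate 2 and WT descending replicate 1.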
